A study of Mus musculus with 2 samples.

Results

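Chemokine receptor genes of CD4+ T cells were examined in PLN T cells of BDC mice after ND αCD4 or isotype control Ab. The 9 genes were chosen by name, as receptors for homing to lymph nodes, follicles, gut, skin and inflamed tissue, and each was read from its brightest probe set that the platform annotation assigns to a single gene. They are *Ccr7*, *Cxcr4*, *Cxcr5*, *Ccr2*, *Ccr4*, *Ccr8*, *Ccr9*, *Ccr10* and *Cxcr6*, or 9 of 19938 genes that could be named, and each of the 9 had 1 such probe set. The data are 2 Affymetrix mouse gene arrays, 1 for ND αCD4 (clone YTS177) and 1 for isotype control Ab (clone 2A3). RNA came from live CD3+CD4+ T cells sorted from PLN 48 hours after treatment. The labels give 8-week-old mice and a dose of 1 mg, whereas the methods give a higher dose range for isotype control Ab than for ND αCD4. The methods state that PLN of 3 mice were pooled for the sort. All mice carried the transgenic BDC TCR on the NOD background, so the CD4+ T cells are largely 1 clonotype specific for an islet antigen, and the antibody is nondepleting. With 1 array per treatment there is no replicate error, no p value can be given, and every difference below describes these 2 pools only.

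Chemokine receptors are G protein-coupled receptors that steer T cells along gradients of chemokines, signal mainly through inhibitory G proteins, and activate integrins and the actin cytoskeleton. *Ccr7* brings naive and central memory T cells into lymph nodes, *Cxcr5* brings follicular helper T cells to B cell follicles, and *Cxcr4* binds CXCL12 and acts in bone marrow retention and positioning. *Ccr9* serves homing to the small intestine and marks thymocytes, *Ccr10*, *Ccr4* and *Ccr8* are linked to skin and to regulatory or type 2 T cells, and *Ccr2* and *Cxcr6* are carried by effector and memory T cells in inflamed tissue. Naive T cells express *Ccr7* strongly, and many of the inflammatory receptors appear only after activation.

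Values are array signals on the log2 scale, and each difference is the ND αCD4 value minus the isotype control value, called the log2 ratio. A gene was called detected when its signal exceeded background in at least 1 array. Background was the 95th percentile of 1210 probe sets for olfactory and vomeronasal receptors, receptors foreign to T cells, and it lay at 7.56 in the ND αCD4 array and 7.64 in the isotype control array. Of all genes, 13222 were detected. The size rule for calling a gene higher or lower was 1.5-fold, a log2 ratio of 0.58 in size. A level on an array depends on the probes of the gene, so signals of different genes were not ranked against each other.

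None of the 9 chemokine receptor genes passed 1.5-fold in either direction. Of the detected genes 28 passed this rule upward, or 0.212%, and 133 downward, or 1.01%, so a count of 0 among 9 genes lies near the background of 1.22% for both directions together. Log2 ratios of the 9 genes ran from -0.38 to 0.32, with 4 above and 5 below 0. Their median was -0.06, against -0.01 over all detected genes, of which 46.7% lay above 0 and 52.7% below. The largest in size belonged to *Ccr8*, *Cxcr6* and *Ccr9*. In sorted bulk cells, a smaller share of cells carrying a receptor and less receptor RNA per cell cannot be told apart. As measures of technical spread, the log2 ratios of the olfactory and vomeronasal receptor probe sets lay between -0.40 and 0.31 for the middle 95% of these probe sets, and the log2 ratios of detected probe sets for the same gene had a within-gene SD of 0.0931 (536 genes with 2 such probe sets). Neither covers differences between mice. Of the 9 receptor genes, 4 lay farther from 0 than this SD and 5 closer. Over all detected genes, 20.0% had a log2 ratio above 0.0932 and 26.6% one below -0.0925, so these 4 do not stand out. Only 1, *Cxcr6*, lay outside the middle 95% of the olfactory and vomeronasal probe sets, and 1.55% of detected genes had a higher log2 ratio. Those probe sets set the background, whereas *Cxcr6* stood above background in both arrays.

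**Figure D1:**
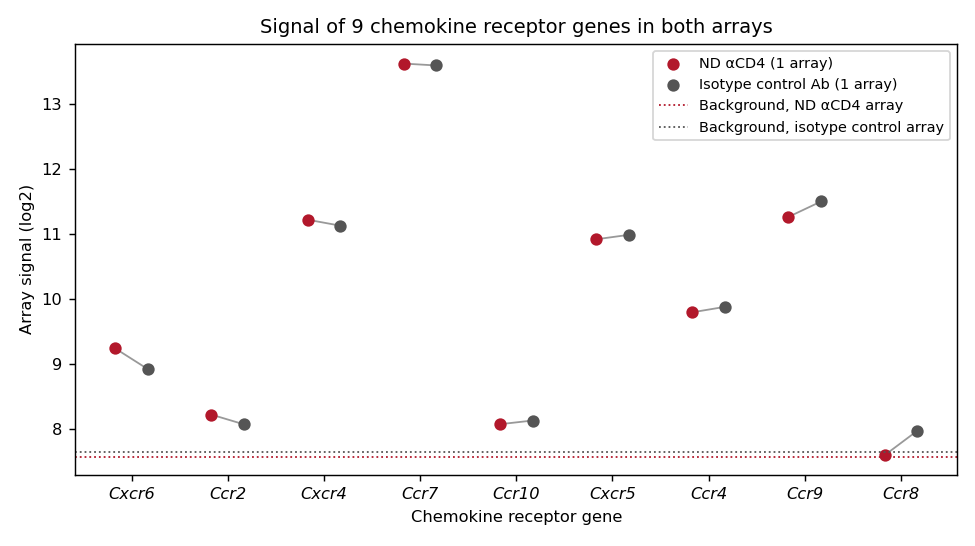
Array signal (log2) of each chemokine receptor gene in the ND αCD4 array (red, left point) and the isotype control array (gray, right point), joined by a line, and dotted lines at each array's background (7.56 and 7.64). *Ccr7* sits far above background in both arrays, *Ccr8* sits at background after ND αCD4, and signals of different genes are not comparable.

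The sequences upstream of the genes with the largest log2 ratios in size are shown, since these 3 genes lie on the same chromosome and their log2 ratios have both signs. Each is the stretch of 250 bases before the annotated start, from RefSeq (GRCm38.p6, a C57BL/6J reference, whereas BDC mice are NOD), on the plus strand and written 5′ to 3′. *Cxcr6* is at chr9:123806227-123806476, *Ccr9* at chr9:123766961-123767210 and *Ccr8* at chr9:120091883-120092132. Capitals mark matches to the KLF motif CCACCC on either strand.
Cxcr6: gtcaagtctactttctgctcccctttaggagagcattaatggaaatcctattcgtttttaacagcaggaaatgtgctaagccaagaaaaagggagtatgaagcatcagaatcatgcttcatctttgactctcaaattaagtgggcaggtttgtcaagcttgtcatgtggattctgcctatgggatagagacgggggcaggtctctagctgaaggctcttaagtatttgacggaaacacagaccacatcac
Ccr9: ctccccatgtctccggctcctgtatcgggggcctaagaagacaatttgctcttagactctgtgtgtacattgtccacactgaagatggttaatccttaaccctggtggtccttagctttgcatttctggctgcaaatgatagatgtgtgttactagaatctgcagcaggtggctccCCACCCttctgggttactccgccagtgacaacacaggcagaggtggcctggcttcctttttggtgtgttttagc
Ccr8: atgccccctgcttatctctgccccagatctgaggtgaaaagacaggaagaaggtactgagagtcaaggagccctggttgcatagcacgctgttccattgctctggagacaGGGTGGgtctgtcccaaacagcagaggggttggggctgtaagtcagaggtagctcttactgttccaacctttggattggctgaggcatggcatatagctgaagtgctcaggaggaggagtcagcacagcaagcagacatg
Such stretches were matched for 6 of the 9 genes. None was matched for *Ccr7*, *Cxcr5* or *Ccr10*, so these were not searched for any motif. The 6 were searched on both strands for 5 motifs, chosen after the log2 ratios were known. The Foxo motif GTAAACA and the T-box motif TCACACC occurred in none of the 6, against 3.17% and 3.33% of all 32851 promoters of this length. The KLF motif occurred in *Ccr9* (74 to 69 bases before the start) and in *Ccr8* (140 to 135 bases before), and 28.1% of all promoters held it. The NFAT motif TGGAAAA occurred once, in *Ccr2* (5.93% of all promoters), and the AP-1 motif TGACTCA once, in *Ccr4* (4.46%). No motif match overlapped another, and a match is a description of letters, not a binding site.

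Of the lymph node and follicle receptors, *Ccr7* differed least between the arrays. *Ccr7* had a signal of 13.63 after ND αCD4 and 13.60 after isotype control Ab, a log2 ratio of 0.03 or 1.02-fold. Of all detected genes, 37.6% had a higher log2 ratio. The study reports *Ccr7*, as a Foxo1 target, to be elevated after ND αCD4 in these samples, so its direction here is not independent evidence. Beyond the arrays, the study reports higher Foxo1 axis genes by qRT-PCR in PLN and pancreatic T cells. It also reports higher surface CCR7 on pancreatic T cells by FACS, and neither measurement was examined here. The array difference of *Ccr7* was above 0 but smaller than the SD between probe sets of a gene. By itself it does not show an elevation beyond that technical spread. *Cxcr4* was at 11.22 after ND αCD4 and 11.13 after isotype control Ab, a log2 ratio of 0.09 or 1.07-fold. *Cxcr5* was at 10.92 after ND αCD4 and 10.99 after isotype control Ab, a log2 ratio of -0.07. Each of these 3 genes was over 3 log2 units above background in both arrays, so low signal does not limit them, and each differed by less than the SD between probe sets of a gene.

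Other genes of follicular helper T cells are given beside *Cxcr5*. Of 13 listed, 11 were detected, 7 below 0 in log2 ratio and 4 above it. No member passed 1.5-fold, with a median of -0.18. *Pou2af1*, a lymphocyte transcriptional coactivator, had a log2 ratio of -0.30 and *Icos*, a costimulatory receptor, -0.27, while the IL-6 receptor chain *Il6ra* had 0.38. *Bcl6*, the transcription factor that defines the subset, was at 10.29 after ND αCD4 and 10.47 after isotype control Ab, a log2 ratio of -0.18. B cells also carry *Cxcr5*, and of 9 measured B cell markers 7 were above background after ND αCD4 and 6 after isotype control Ab. Their summed signal on a linear scale was 3098 after ND αCD4 and 2913 after isotype control Ab, and 6 of the 7 detected had a log2 ratio above 0. *Cd79b*, a chain of the B cell receptor complex, was at 10.44 after ND αCD4 and 10.34 after isotype control Ab, *Cd22* at 8.38 after ND αCD4 and 8.32 after isotype control Ab, and *Pax5* at 8.08 after ND αCD4 and 8.04 after isotype control Ab. *Ebf1* and *Cr2* were not above background in either array, and the part of B cells in the *Cxcr5* value was not tested.

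The gut receptor *Ccr9* had a log2 ratio below 0, short of the size rule. Its signal was 11.26 after ND αCD4 and 11.50 after isotype control Ab, a log2 ratio of -0.24 or 1.18-fold lower, and 7.36% of detected genes had a lower log2 ratio. *Ccr9* stood over 3.7 log2 units above background in both arrays. The integrin chains that pair for gut homing had log2 ratios above 0, also short of the size rule. *Itgb7* was at 12.05 after ND αCD4 and 11.73 after isotype control Ab, a log2 ratio of 0.32, and *Itga4* at 12.57 after ND αCD4 and 12.41 after isotype control Ab, a log2 ratio of 0.16. Thymocytes also carry *Ccr9*. Of 8 immature T cell markers, 5 were detected, 3 with a log2 ratio above 0 and 2 below, with a median of 0.12 and a summed signal of 2879 after ND αCD4 and 2508 after isotype control Ab. *Dntt*, the terminal transferase of developing lymphocytes, was at 8.88 after ND αCD4 and 7.65 after isotype control Ab, a log2 ratio of 1.24 in which the isotype control value exceeded background by 0.0025 log2 units, while *Rag1* and *Rag2* were not above background in either array. The part of immature T cells in the *Ccr9* value was not tested.

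Receptors linked to skin and to regulatory or type 2 T cells all had log2 ratios below 0. *Ccr8* was at 7.59 after ND αCD4 and 7.97 after isotype control Ab, a log2 ratio of -0.38 or 1.30-fold lower, and 2.74% of detected genes had a lower log2 ratio. The ND αCD4 value exceeded background by 0.03 log2 units, so *Ccr8* was barely detected in that array, and its log2 ratio lay within the middle 95% of the olfactory and vomeronasal probe sets. It was the only 1 of the 9 genes to pass a smaller size rule of 25% over the lower value, which 5.39% of detected genes passed (3.89% lower and 1.51% higher). *Ccr4* was at 9.79 after ND αCD4 and 9.88 after isotype control Ab, a log2 ratio of -0.08, and *Ccr10* at 8.07 after ND αCD4 and 8.13 after isotype control Ab, a log2 ratio of -0.06. Both differed by less than the SD between probe sets of a gene.

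Of 12 regulatory T cell genes, all detected, 9 had a log2 ratio below 0 and 3 above, with a median of -0.09, and 1 passed 1.5-fold. That gene was *Il2ra*, the IL-2 receptor α chain, which activated T cells also express, at 10.82 after ND αCD4 and 11.42 after isotype control Ab, or 1.51-fold lower, and it fell short of 1.5-fold under lowess and quantile scaling. *Ikzf2* had a log2 ratio of -0.28 and *Tnfrsf4* of -0.22, whereas *Ctla4*, an inhibitory receptor, had 0.19. *Foxp3*, the defining transcription factor, was at 10.39 after ND αCD4 and 10.46 after isotype control Ab, a log2 ratio of -0.07. Of 6 detected type 2 genes, 3 lay above and 3 below 0, with *Gata3* at 11.47 after ND αCD4 and 11.42 after isotype control Ab. The share of regulatory T cells in each pool was not measured here.

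The inflammatory receptors *Cxcr6* and *Ccr2* were the highest of the 9 by log2 ratio. *Cxcr6*, the receptor for CXCL16, was at 9.24 after ND αCD4 and 8.92 after isotype control Ab, a log2 ratio of 0.32 or 1.248-fold higher, and 1.55% of detected genes had a higher log2 ratio. It fell just short of the smaller size rule of 25% and stood 1.68 log2 units above background after ND αCD4 and 1.27 after isotype control Ab. *Ccr2*, a receptor for CCL2, was at 8.22 after ND αCD4 and 8.07 after isotype control Ab, a log2 ratio of 0.15 or 1.11-fold higher, and 10.6% of detected genes had a higher log2 ratio. *Ccr2* stood 0.66 log2 units above background after ND αCD4 and 0.42 after isotype control Ab.

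Markers of CD8 T cells and natural killer cells, which also carry *Cxcr6*, are given beside it, and a sort for CD3 and CD4 is designed to leave such cells out. *Cd8a* was at 10.39 after ND αCD4 and 9.67 after isotype control Ab, or 1.65-fold higher, and *Cd8b1* at 11.83 after ND αCD4 and 11.38 after isotype control Ab, or 1.37-fold higher, with a summed signal of 4984 after ND αCD4 and 3478 after isotype control Ab. Of 8 natural killer cell markers, 4 were above background after ND αCD4 and 3 after isotype control Ab, with a summed signal of 5811 after ND αCD4 and 5447 after isotype control Ab. Of the 4 detected, 3 had a log2 ratio above 0 and 1 below, with a median of 0.51. *Prf1*, which encodes perforin, was 1.51-fold higher, *Gzma*, a granzyme, had a log2 ratio of 0.43, and *Klrd1*, a natural killer receptor chain, was 1.80-fold higher as measured but only at least 1.46-fold higher by its bound, since the isotype control value was not above background. The one below 0 was *Eomes*, a T-box transcription factor, at 11.41 after ND αCD4 and 11.72 after isotype control Ab. *Ncr1*, *Klrb1c*, *Klra8* and *Klre1* were not above background in either array, and the match of their probes to NOD sequence was not checked. The part of CD8 T cells and natural killer cells in the *Cxcr6* value was not tested. For *Ccr2*, which monocytes also carry, 4 of 8 measured monocyte and macrophage markers were above background after ND αCD4 and 3 after isotype control Ab, with a summed signal of 1850 after ND αCD4 and 1720 after isotype control Ab. *Csf1r*, *Cd14* and *Adgre1* were not above background in either array, *Cd68* had a log2 ratio of 0.23 and *Lyz2* of 0.11, and the part of these cells in the *Ccr2* value was not tested.

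Other chemokine receptor genes, listed as the rest of the family, also stayed within 1.5-fold. Of 13 measured, 6 were detected, none of which passed 1.5-fold, and as many lay above 0 as below (3 each). *Cx3cr1*, the fractalkine receptor, had the largest log2 ratio in size, at -0.26 (8.11 after ND αCD4 and 8.37 after isotype control Ab). *Cxcr3*, the Th1-associated receptor for interferon-induced chemokines, was at 11.35 after ND αCD4 and 11.28 after isotype control Ab, a log2 ratio of 0.07. *Ccr6*, linked to Th17 cells, had a log2 ratio of -0.10. The 7 not above background in either array, given no ratio, were *Ccr1*, *Ccr3*, *Cxcr1*, *Xcr1*, *Ackr1*, *Ackr3* and *Ackr4*.

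**Figure D2:**
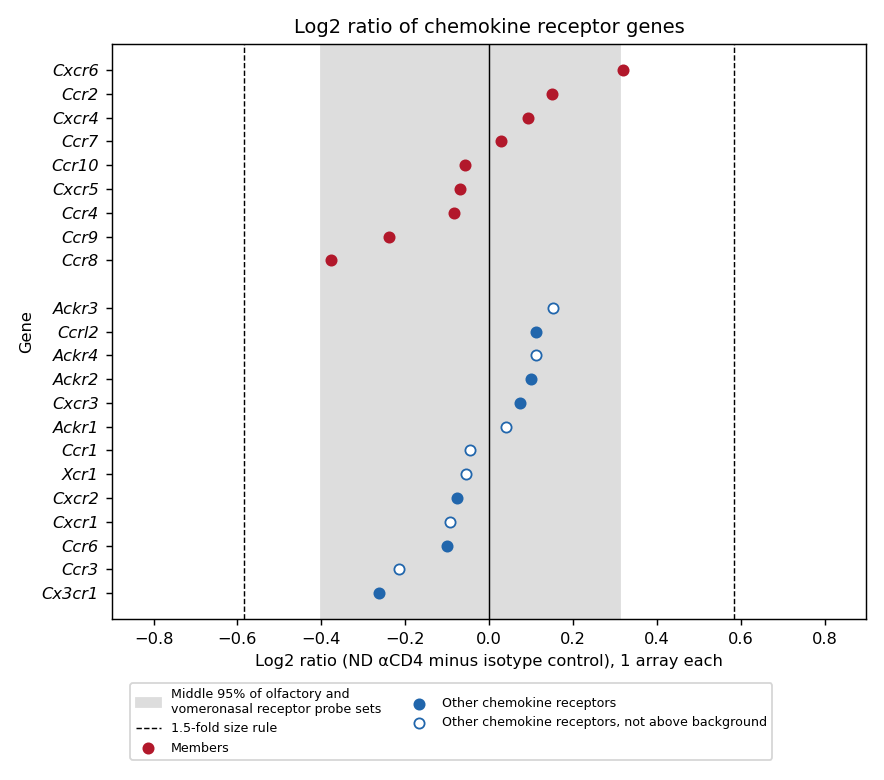
Log2 ratio (ND αCD4 minus isotype control, 1 array each) of the 9 chemokine receptor genes (red) and 13 other measured chemokine receptors (blue, open where not above background in either array), with dashed lines at 1.5-fold and gray for the middle 95% of olfactory and vomeronasal receptor probe sets. No receptor gene reaches a dashed line, and *Cxcr6* at 0.32 lies just outside the gray band.

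Of the 9 genes, 6 lie on chromosome 9, 2 on chromosome 11 and 1 on chromosome 1. *Ccr9*, *Cxcr6* and *Ccr2* belong to a cluster of chemokine receptor genes in which log2 ratios of neighbors had both signs. In RefSeq order, *Ccr9* (log2 ratio -0.24) and *Cxcr6* (0.32) are separated by *Fyco1*, an autophagy adaptor gene, at 0.12, and *Lztfl1*, on the other side of *Ccr9*, was at -0.24. Between *Cxcr6* and *Ccr2*, the genes *Xcr1*, *Ccr1*, *Ccr1l1* and *Ccr3* were not above background in either array. The 5 nearest protein-coding genes on each side of every member were 75 different genes, of which 67 were measured. Of the 67, 50 were detected, 22 with a log2 ratio above 0 and 28 below. Of these 50, 1 was at least 1.5-fold higher (*Cd55*, a complement regulator near *Cxcr4*, log2 ratio 0.80). At least 1.5-fold lower were 2 (*Top2a* near *Ccr7*, -1.47, and *Mcm6* near *Cxcr4*, -0.69, both genes of DNA replication and cell division). Over all detected genes the shares were 0.212% higher and 1.01% lower.

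**Figure D3:**
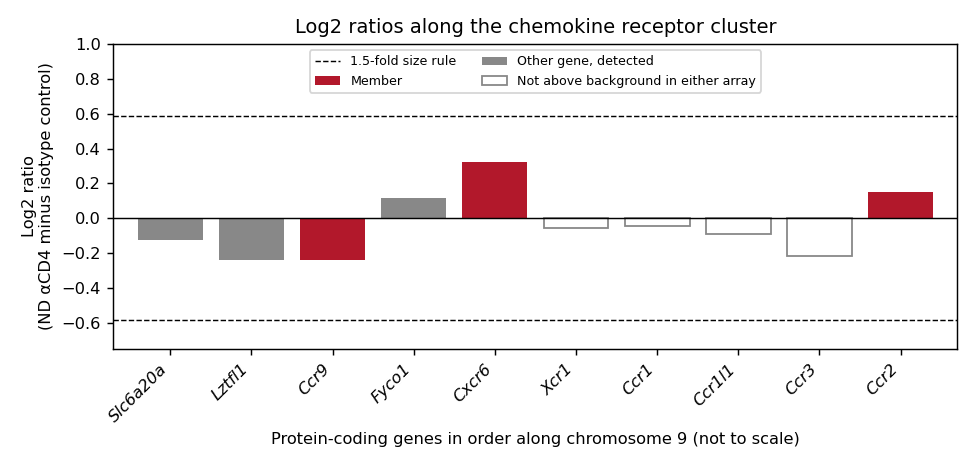
Log2 ratio (ND αCD4 minus isotype control, 1 array each) of 10 protein-coding genes in order along chromosome 9 around *Ccr9*, *Cxcr6* and *Ccr2* (red), with open bars for genes not above background in either array and dashed lines at 1.5-fold. *Ccr9* (-0.24) and *Cxcr6* (0.32), close neighbors, lie on opposite sides of 0.

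Genes that couple chemokine receptors to migration were mostly a little above 0. Of 37 measured, all detected, 31 had a log2 ratio above 0 and 6 below, with a median of 0.05, against 46.7% of all detected genes above 0. *Rgs2*, a regulator of G protein signaling, was the only one past 1.5-fold as deposited, at 9.96 after ND αCD4 and 9.16 after isotype control Ab, or 1.74-fold higher. *Pik3r5*, a regulatory subunit of the PI3K activated by chemokine receptors, had a log2 ratio of 0.58 and *Rasgrp2*, an activator of Rap1, 0.37, while *Rgs16*, another regulator of G protein signaling, had -0.37. *Gnai2*, the main inhibitory G protein subunit in lymphocytes, was at 13.32 after ND αCD4 and 13.28 after isotype control Ab. Among 14 detected partner homing molecules, 7 lay above and 7 below 0, with *Klf2*, which drives genes of T cell egress, at 0.50, the egress receptor gene *S1pr1* at 0.41 and the selectin ligand *Selplg* at 0.33. The study displays *Klf2* and *S1pr1* from these samples, so their directions are not independent evidence.

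The T cell markers were close to equal in both pools, and cell division genes were not. *Cd3e* was at 13.78 after ND αCD4 and 13.76 after isotype control Ab, *Cd4* at 13.48 after ND αCD4 and 13.38 after isotype control Ab, and none of 8 measured CD4 T cell markers passed 1.5-fold. By the size rule, 22 of 28 detected proliferation genes were lower after ND αCD4, against 1.01% of all detected genes. The median log2 ratio of the 28 was -0.77, and among them were *Dtl* (-1.72), *Rrm2* (-1.58) and *Ccna2* (-1.56). The study reports reduced proliferation genes from these samples, so this direction is not independent evidence. The part of cell division genes in the receptor values was not tested.

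**Figure D4:**
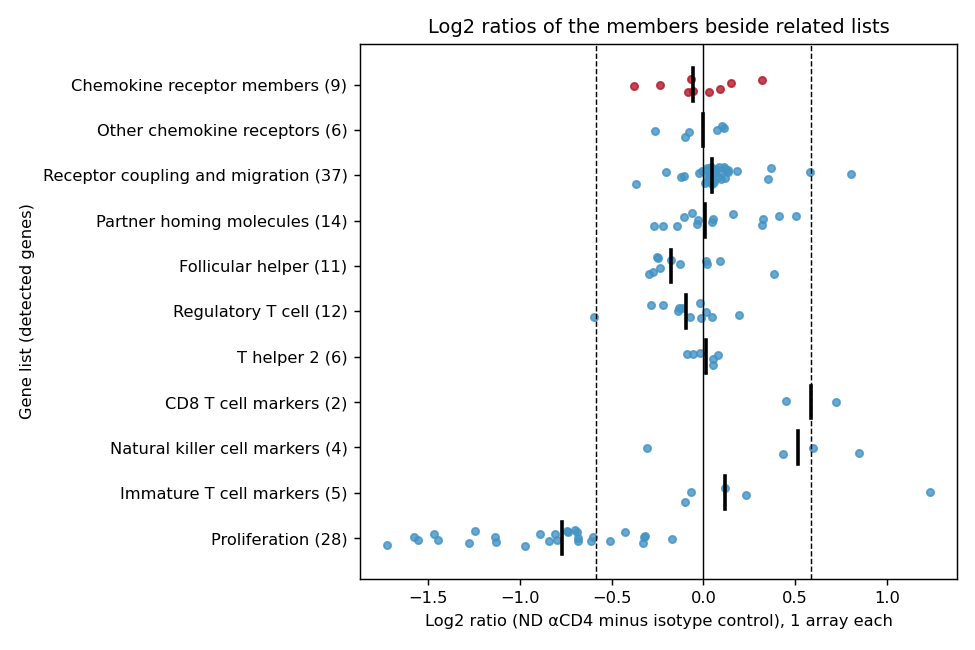
Log2 ratio (ND αCD4 minus isotype control, 1 array each) for the detected genes of each list (their number in parentheses), shown as points scattered vertically for legibility, with black bars at list medians and dashed lines at 1.5-fold. The 9 chemokine receptor genes spread around a median of -0.06, the CD8 T cell markers lie at 0.45 and 0.72, and the proliferation genes have a median of -0.77.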

How the data were processed

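The authors deposited log2 values for 35557 probe sets on 2 arrays. Affymetrix Expression Console is named in the submitters' processing notes. Its version and the methods of background correction, normalization and summarization are not stated there or in the paper. The log2 scale was inferred from the range (2.52 to 14.7) and the equal medians (8.15 in both arrays). The probe set identifiers are those of an earlier array version than the paper names. The label under age holds the treatment, and the clone number of the BDC mice differs between labels and methods.

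Of all probe sets, 21789 had 1 gene symbol in the platform annotation, 1621 had several and 12147 had none, and only the first were named. By gene identifier, 21698 matched the RefSeq table of GRCm38.p6. For each gene the probe set with the highest mean was kept. A gene below background in 1 array was given a bound against that array's background. No test was run, as 1 array per treatment allows none, so their number limits precision. The steps were tested on simulated data with known fold changes. The noise was set by hand and only genes well above background were changed. The simulation therefore does not cover members close to background, such as *Ccr8*, *Ccr10* and *Ccr2*.

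Members and lists were chosen with earlier results of these data known. Genes were named by rule (all members; per list, those past 1.5-fold and up to 3 of the largest log2 ratio in size, with 3 examples for proliferation; up to 3 markers of highest signal per cell type). *Itgb7*, *Itga4*, *Foxp3*, *Bcl6*, *Gata3*, *Gnai2*, *Cxcr3*, *Ccr6*, the neighbors in the cluster and undetected markers were named after their values were seen. Alternatives were median centring, lowess (fraction 0.3, 3 iterations), quantile normalization, averaged probe sets, a floor at background, other filters, a 99th percentile background and size rules of 25% and 2-fold. Computation used Python 3.11.15 with pandas 2.3.3, numpy 2.4.6 and statsmodels 0.14.6, and plots used matplotlib 3.10.9.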

Additional observations from a re-analysis of the deposited data

How the results depend on the processing

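Each of the 9 chemokine receptor genes kept the sign of its log2 ratio under every alternative that gave it a value, and the largest shift was 0.02 (*Ccr7*, quantile normalization, to 0.05). Background at the 99th percentile, 8.37 in the ND αCD4 array and 8.39 in the isotype control array, left 6 of the 9 detected, so that *Ccr2*, *Ccr8* and *Ccr10* had no value there, and the median of the rest was -0.02. The count past 1.5-fold was 0 in every other alternative and 1 (*Ccr8*, lower) with the size rule of 25%. *Pik3r5* joined *Rgs2* past 1.5-fold under lowess and quantile normalization. With flooring or detection in both arrays, 1 natural killer marker passed 1.5-fold in place of 2, and with no filter the median of these markers was 0.38 (0.51 with the filter). The scalings left the median of all detected genes between -0.01 and -0.0042. No paired analysis was possible because each treatment has 1 array. Signal close to background limits *Ccr8*, *Ccr10* and *Ccr2* most.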

Other observations

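Genes of the receptors' ligands, which stromal cells, dendritic cells and macrophages mainly make, were mostly not above background in the sorted T cells. Of 16 listed, 13 were measured, and *Ccl21a*, *Ccl21b* and *Ccl27a* were not. Of the 13, 8 were not above background in either array. The other 5 were detected, none past 1.5-fold, with 2 log2 ratios above 0 and 3 below. *Ccl19*, a ligand of CCR7, was read from the brightest of 5 probe sets. It was at 8.37 after ND αCD4 and 8.59 after isotype control Ab, a log2 ratio of -0.22. *Ccl25*, the ligand of CCR9, was at 9.39 after ND αCD4 and 9.50 after isotype control Ab. *Cxcl13*, the ligand of CXCR5, exceeded background only after ND αCD4 (7.81, against 7.56 after isotype control Ab), at least 1.12-fold higher. *Cxcl12*, the ligand of CXCR4, and *Cxcl16*, the ligand of CXCR6, were not above background in either array.

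Of 10 dendritic cell markers, 5 were detected, all with a log2 ratio below 0, with a summed signal of 5786 after ND αCD4 and 7343 after isotype control Ab. *Irf8*, a transcription factor of dendritic cells that activated T cells also express, was at 10.53 after ND αCD4 and 11.35 after isotype control Ab, or 1.77-fold lower, and *Bst2* had a log2 ratio of -0.19. *Itgax*, *Flt3* and *Clec9a* were not above background in either array. Of 8 neutrophil markers, 3 were above background after ND αCD4 and 2 after isotype control Ab, and none passed 1.5-fold.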
